A study of Mus musculus with 12 samples.

Results

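Marker genes of the GABA interneurons of the striatum were examined in RNA of TAAR5-KO mice, which lack trace amine-associated receptor 5, and of their wild-type littermates. The 10 genes were taken by name from a table of 57132 counted features, and each name matched 1 feature. They are Sst, Npy, Nos1, Chodl, Pvalb, Kit, Lhx6, Calb2, Vip and Cck. The striatum was sampled in 6 libraries labelled TAAR5-KO (NK1 to NK6) and 6 labelled TAAR5-WT (NK7 to NK12). All mice were of the C57Bl/6 background and 10 months old, both sexes were used in the study, and no treatment is named. The knockout is of the whole animal, so no group isolates an effect within interneurons. The tissue was a coronal slice just in front of bregma with its cortex cut away, and its RNA was depleted of ribosomal RNA before directional libraries were made.

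Interneurons are a small minority of the neurons of the striatum, which consists mostly of GABAergic spiny projection neurons. They release GABA locally and set the timing of spiny neuron firing. The main classes are named by what they express. One class makes the peptides somatostatin and neuropeptide Y together with neuronal nitric oxide synthase, fast-spiking cells contain parvalbumin, and further cells contain calretinin or, more rarely, the peptides cholecystokinin and vasoactive intestinal peptide. Most of these classes are born in the medial ganglionic eminence of the embryo, where the transcription factor Lhx6 directs their migration and fate.

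Total counts ran from 11269915 to 34824450 per library, of which ribosomal RNA features together with Lars2 held 65.9% to 90.6%, so that 1408771 to 6085409 counts remained for all other features. Values are given as counts per M (CPM, where M is a library size of 1e6 counts) on library sizes scaled by trimmed mean of M values (TMM), with scaling factors from 0.375 to 2.46. The floor of 3 counts, up to which a count of 0 was read, corresponded to between 0.0678 and 0.361 CPM, and it covers counting error only. Counts of Taar5 went against the labels in direction, with 1 to 6 per library labelled TAAR5-KO and 0 to 2 per library labelled TAAR5-WT. Only NK6, with 6 counts, was above the floor of 3 counts, so these counts cannot settle the labels. Whether a part of the gene outside the deletion was counted was not tested. Genotypes are therefore given here as labels, and every direction rests on them. The labelled tissue was borne out by spiny neuron markers, 8 of 8 of which had counts in every library, with a summed level of 213 to 275 CPM in libraries labelled TAAR5-KO and 126 to 230 CPM in those labelled TAAR5-WT. All 8 had a higher fitted level in libraries labelled TAAR5-KO, as did 6798 of all 13902 features tested. None of the 8 passed the edgeR likelihood ratio test (smallest adjusted p = 0.140), which called 1.65% of all features. The part of the spiny neuron markers in the results on interneuron markers was not tested.

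All 10 interneuron markers passed the filter of at least 0.5 CPM on total counts in at least 3 libraries. In the comparison of the labelled genotypes by the likelihood ratio test of edgeR, 0 of the 10 had a Benjamini–Hochberg adjusted p below the threshold of 0.1, against 229 of the 13902 features tested (1.65%, or 0.957% higher and 0.691% lower). At an unadjusted p under 0.05 there was 1 of the 10, Calb2, where all features had 11.9%. By the quasi-likelihood test of edgeR 0 of the 10 were called (0.453% of all features), and 0 had an unadjusted p under 0.05 (12% of all features). DESeq2 also called 0 of the 10 (1.27% of all features), with 0 at an unadjusted p under 0.05 (9.73% of all features), although it gave no adjusted p for 3 of them. Fitted levels were higher in libraries labelled TAAR5-KO for 4 markers and lower for 6, or for 1 and 9 with library size as the only scaling, which shifts the median of all features by −0.49 on the log2 scale. Their median log2 fold change was −0.05, beside −0.0059 over all features tested. The values of both groups overlapped for each of the 10, whereas 1.01% of all features had groups without overlap. In such bulk RNA, fewer cells of a type and less RNA per cell cannot be told apart.

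**Figure D1:**
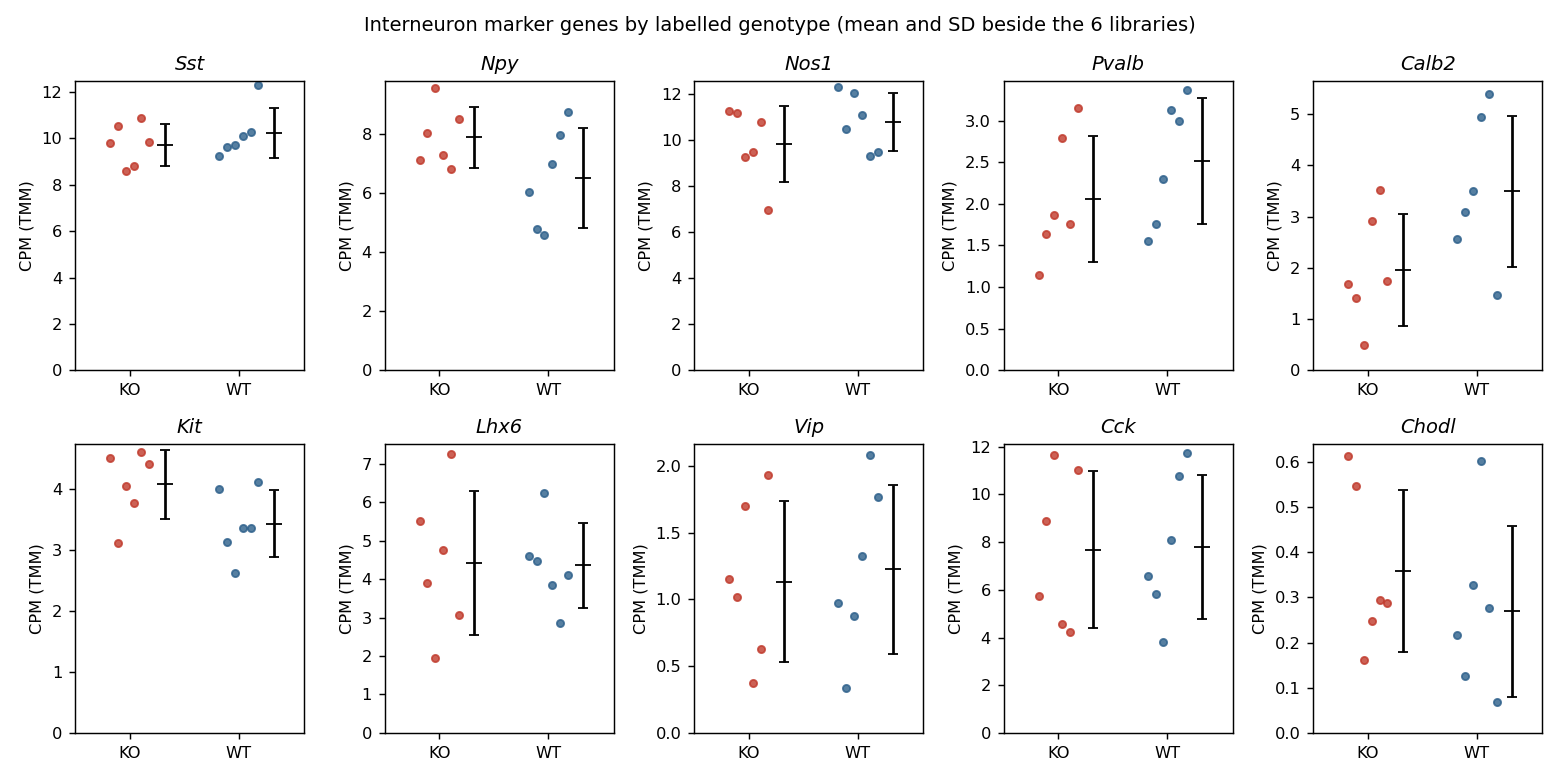
Level of each of the 10 interneuron marker genes in CPM on TMM-scaled library sizes, with 1 point per library (6 labelled TAAR5-KO in red, 6 labelled TAAR5-WT in blue) and the mean ± SD of each group as a black bar. The points of both groups overlap in every panel, and those of Sst span 1.43-fold from the lowest to the highest library while those of Calb2 span 11.1-fold.

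To compare genes with each other, levels were divided by the length of the merged exons and are given as CPM per kilobase. The peptide genes Sst and Npy were the highest, with means over the 12 libraries of 13.8 ± 1.36 and 12.7 ± 2.67 CPM per kilobase (SD, n = 12). Cck followed at 5.93 ± 2.30, Pvalb at 2.20 ± 0.732, Calb2 at 1.56 ± 0.845, Nos1 at 0.923 ± 0.133 and Lhx6 at 0.912 ± 0.306 CPM per kilobase. Kit was at 0.422 ± 0.0708, Vip at 0.346 ± 0.174 and Chodl at 0.0571 ± 0.0330 CPM per kilobase. The order of neighbours was kept in all 12 libraries only for Npy over Cck, Cck over Pvalb and Vip over Chodl. Lhx6 exceeded Kit in 11 libraries, Sst exceeded Npy in 9 and Pvalb exceeded Calb2 in 9. Calb2 exceeded Nos1 in 8, Kit exceeded Vip in 7 and Nos1 exceeded Lhx6 in 6, so the levels of these neighbours were not separated beyond their spread over libraries. The markers also differed in how stable they were. From the lowest to the highest library, Sst ranged over 1.43-fold, Kit over 1.76-fold and Nos1 over 1.77-fold, whereas Lhx6 ranged over 3.73-fold, Vip over 6.22-fold and Calb2 over 11.1-fold. The low end of Calb2 was NK3 alone with 6 counts (0.486 CPM), the next library being at 1.40 CPM, and the lowest counts of Vip were 6 to 8. The 9.04-fold range of Chodl rests on 2 to 11 counts per library.

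**Figure D2:**
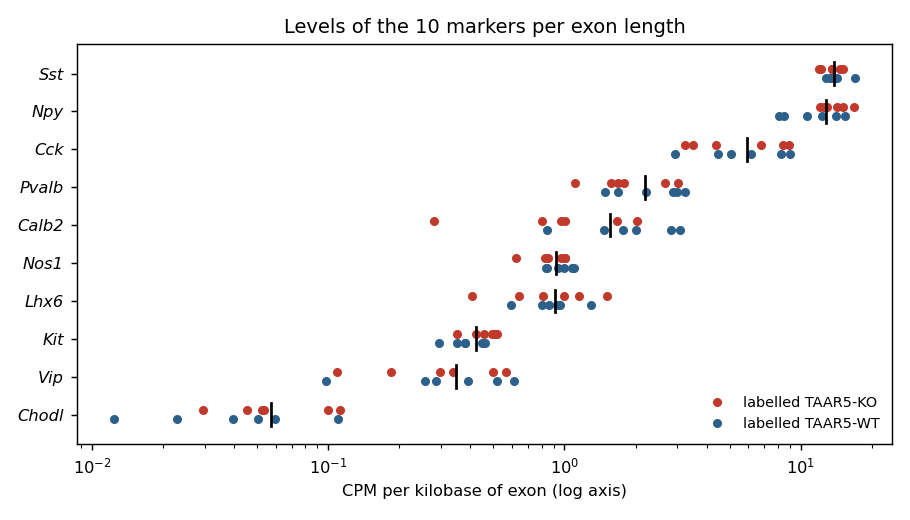
Levels of the 10 markers in CPM per kilobase of merged exons, on a log axis, with 1 point per library (red, labelled TAAR5-KO; blue, labelled TAAR5-WT) and a black line at the mean of the 12 libraries. Sst and Npy lie above the other markers with means of 13.8 and 12.7 CPM per kilobase, and Chodl lies lowest at 0.0571.

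Somatostatin is an inhibitory neuropeptide and the defining marker of the low-threshold spiking interneurons. Its gene Sst (ENSMUSG00000004366.5) lies on chromosome 16 of GRCm39 from 23708323 to 23709708 on the minus strand, and the counts cover its exons. In libraries labelled TAAR5-KO it ran from 8.59 to 10.9 CPM with a median of 9.82 CPM. In libraries labelled TAAR5-WT it ran from 9.25 to 12.3 CPM with a median of 9.93 CPM. The groups lay on top of each other, with NK12 as the highest library of all. The log2 fold change of −0.08 with an SE of 0.10 had a 95% interval from −0.28 to 0.13, the narrowest of the 10 (adjusted p = 0.833, likelihood ratio test).

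Neuropeptide Y is released by the same cells and also by neurogliaform interneurons, which lack somatostatin. Npy (ENSMUSG00000029819.7, chromosome 6, 49799690 to 49806487) ran from 6.84 to 9.56 CPM with a median of 7.67 CPM in libraries labelled TAAR5-KO. It ran from 4.59 to 8.75 CPM with a median of 6.52 CPM in libraries labelled TAAR5-WT, where NK7, NK8 and NK9 were below every library labelled TAAR5-KO. NK3 and NK12 were the highest of their groups. The log2 fold change was 0.25 (SE 0.15, 95% interval −0.05 to 0.55), with an unadjusted p of 0.0972 and an adjusted p of 0.533 from the likelihood ratio test. With 1 library left out, the log2 fold change of Npy ran from 0.16 (without NK8) to 0.37 (without NK12, unadjusted p = 0.0109, adjusted p = 0.276, likelihood ratio test). It was 0.35 with each library's GC trend removed (unadjusted p = 0.0123, adjusted p = 0.320, likelihood ratio test).

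Nos1, which encodes the neuronal nitric oxide synthase of these cells, lies on chromosome 5 from 117919097 to 118096905 (ENSMUSG00000029361.19). Its level was 6.94 to 11.3 CPM with a median of 10.1 CPM in libraries labelled TAAR5-KO and 9.28 to 12.3 CPM with a median of 10.8 CPM in those labelled TAAR5-WT. The low end belonged to NK6 alone, since the other 11 libraries lay at 9.24 CPM or above. The log2 fold change was −0.14 with an SE of 0.13 (adjusted p = 0.724). With 1 library left out it ran from −0.18 (without NK12) to −0.03 (without NK6). Exons of the non-coding genes Gm26995 and Gm30360 on the opposite strand share 268 and 186 bases with Nos1 in the GENCODE M39 annotation, and the strand setting of the counting is not stated, so reads in these bases are uncertain. Chodl, which encodes the membrane protein chondrolectin and in the cortex marks the long-range projecting type of Sst and Nos1 cells, lies on chromosome 16 from 78727836 to 78748621 (ENSMUSG00000022860.16). It had 2 to 11 counts per library labelled TAAR5-KO and 3 to 6 per library labelled TAAR5-WT, close to the floor of 3 counts in most libraries. Its fitted log2 fold change of 0.70 with an SE of 0.44 (adjusted p = 0.552) had a 95% interval from −0.16 to 1.56. Over the 9 fits with 1 library left out that tested it, the value ran from 0.38 (without NK12) to 0.97 (without NK10, adjusted p = 0.344, likelihood ratio test). This depth could thus not show a difference of such a size.

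The log2 ratio of Npy to Sst counts within a library, which does not depend on the scaling of libraries, averaged −0.31 ± 0.28 under the label TAAR5-KO and −0.68 ± 0.29 under the label TAAR5-WT (SD, n = 6 each). Npy thus stood 0.37 higher relative to Sst on the log2 scale, with overlapping groups (two-sided exact permutation test, p = 0.0498, adjusted p = 0.216 over 6 ratios). The smallest p that this test allows is 0.00216. Nos1 relative to Sst differed by −0.08 (exact permutation p = 0.641, adjusted p = 0.769). The 6 ratios tested held no difference past the threshold.

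Parvalbumin is a calcium buffer of the fast-spiking interneurons. Pvalb (ENSMUSG00000005716.17, chromosome 15, 78075314 to 78090600, minus strand) ran from 1.15 to 3.16 CPM with a median of 1.81 CPM in libraries labelled TAAR5-KO and from 1.55 to 3.37 CPM with a median of 2.65 CPM in those labelled TAAR5-WT. It had 15 to 121 counts and 21 to 149 counts per library, respectively. The ranges covered each other almost entirely, and the log2 fold change was −0.25 (SE 0.25, 95% interval −0.74 to 0.25, adjusted p = 0.761 from the likelihood ratio test). Without NK12 it was −0.11 and without NK6 it was −0.43.

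Kit encodes the receptor tyrosine kinase for stem cell factor, which interneurons carry and which is also the surface marker of mast cells. It lies on chromosome 5 from 75735576 to 75817382 (ENSMUSG00000005672.13). Kit ran from 3.12 to 4.61 CPM with a median of 4.23 CPM in libraries labelled TAAR5-KO and from 2.63 to 4.11 CPM with a median of 3.37 CPM in those labelled TAAR5-WT. NK9 was the lowest of all and NK5 the highest, the ranges overlapped, and the log2 fold change was 0.22 (SE 0.13, 95% interval −0.04 to 0.48, adjusted p = 0.539). Of 5 mast cell markers, 1 had counts in every library (Hdc, which histamine neurons also express) and Fcer1a was at 0 in all of them, with a summed level of 0.306 to 1.05 CPM in libraries labelled TAAR5-KO and 0.432 to 0.843 CPM in those labelled TAAR5-WT. Kit relative to Pvalb was 0.55 higher on the log2 scale in libraries labelled TAAR5-KO, which was within the spread (exact permutation p = 0.102, adjusted p = 0.216).

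Lhx6, the LIM homeodomain factor of cells from the medial ganglionic eminence, lies on chromosome 2 from 35971965 to 35995420 (ENSMUSG00000026890.20, minus strand). It ran from 1.94 to 7.26 CPM with a median of 4.34 CPM in libraries labelled TAAR5-KO and from 2.86 to 6.23 CPM with a median of 4.29 CPM in those labelled TAAR5-WT. NK5 was the highest of all and NK3 the lowest, both labelled TAAR5-KO. The log2 fold change was 0.04 with an SE of 0.24 (adjusted p = 0.973), and it turned from −0.17 without NK5 to 0.19 without NK3. The non-coding gene Gm56460 on the same strand shares 104 exonic bases with Lhx6 in the GENCODE M39 annotation, so reads in these bases are uncertain.

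Calretinin is another calcium buffer, and it marks a class of small striatal interneurons that lack parvalbumin and somatostatin. Its gene Calb2 (ENSMUSG00000003657.10, chromosome 8, 110864134 to 110894842, minus strand) had the lowest unadjusted p of the 10. Under the label TAAR5-KO its levels were, in order from NK1 to NK6, 1.68, 1.40, 0.486, 2.91, 3.52 and 1.75 CPM. Under the label TAAR5-WT they were, in order from NK7 to NK12, 2.56, 3.09, 3.50, 4.94, 5.40 and 1.47 CPM. In counts this was 6 to 84 and 32 to 117 per library. The library NK12 labelled TAAR5-WT lay among the low ones, and NK4 and NK5 labelled TAAR5-KO lay among the high ones. The group means were 1.96 ± 1.09 CPM and 3.49 ± 1.47 CPM (SD, n = 6 each). The log2 fold change was −0.79 (SE 0.34, 95% interval −1.45 to −0.12), with an unadjusted p of 0.0203 and an adjusted p of 0.306 from the likelihood ratio test. Relative to Sst within each library, Calb2 differed by −0.86 on the log2 scale (two-sided exact permutation test, p = 0.108, adjusted p = 0.216).

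The level of Calb2 differed between libraries with high and with low levels of Ttr, the transthyretin gene and leading product of the choroid plexus. Ttr was above 100 CPM (102 to 427 CPM) in NK4 and NK5 labelled TAAR5-KO and in NK7 to NK11 labelled TAAR5-WT, and it was 0.468 to 5.29 CPM in the other 5 libraries. The choroid plexus list of 5 genes, 4 of them with counts in every library and none at 0 throughout, had a summed level of 2.60 to 467 CPM in libraries labelled TAAR5-KO and 3.50 to 285 CPM in those labelled TAAR5-WT. Where Ttr was high, Calb2 was 2.91 to 3.52 CPM in the 2 libraries labelled TAAR5-KO and 2.56 to 5.40 CPM in the 5 labelled TAAR5-WT. Where Ttr was low, it was 0.486 to 1.75 CPM in the 4 libraries labelled TAAR5-KO and 1.47 CPM in NK12, the single library labelled TAAR5-WT. All 7 libraries with high Ttr thus had more Calb2 than all 5 with low Ttr, in both genotypes. Among the 7, the library with the most Ttr (NK4, 427 CPM) had 2.91 CPM of Calb2. The most Calb2, 5.40 CPM, was in NK11, where Ttr was at 133 CPM. With the class of Ttr level as a term in the fit, which was tried after the data had been seen, the log2 fold change of Calb2 was −0.19 with an SE of 0.24 (adjusted p = 0.784), and within the 7 libraries of high Ttr it was −0.24 with an SE of 0.26 (adjusted p = 0.891). The class of Ttr level as a term also moved Npy to 0.09, Nos1 to −0.07 and Lhx6 to 0.22, none of them called. Within the libraries of high Ttr, Pvalb was at −0.02 and Lhx6 at 0.49 (unadjusted p = 0.0314, adjusted p = 0.582). In the same likelihood ratio fit Cck was at −0.68 (unadjusted p = 0.00911, adjusted p = 0.407) and Vip at −1.10 (unadjusted p = 0.0387, adjusted p = 0.620). The class of Ttr level was split unevenly over the labels, with 4 of the 5 libraries of low Ttr labelled TAAR5-KO. Label and class can therefore not be fully told apart in these fits. The part of choroid plexus tissue in the level of Calb2 was not tested. Of 5 markers of subventricular neuroblasts, which can contain calretinin, 5 had counts in every library, with a summed level of 15.9 to 21.6 CPM in libraries labelled TAAR5-KO and 17.0 to 22.3 CPM in those labelled TAAR5-WT.

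**Figure D3:**
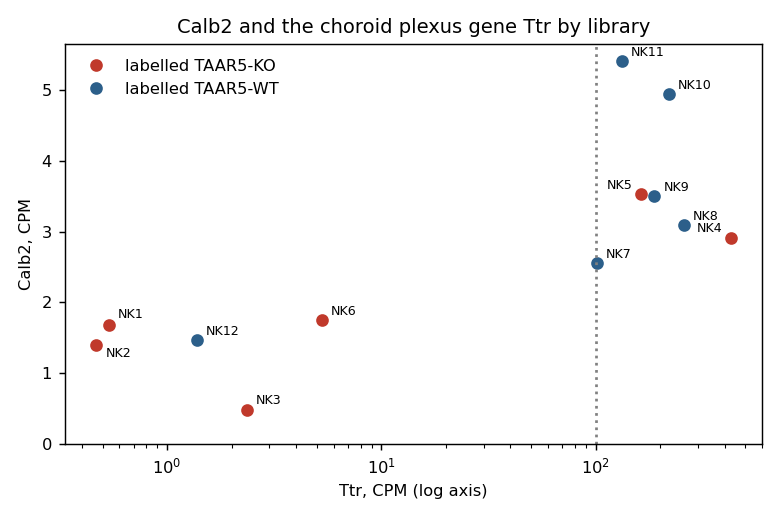
Level of Calb2 in CPM against the level of Ttr in CPM on a log axis, with 1 point per library (red, labelled TAAR5-KO; blue, labelled TAAR5-WT) and a dotted line at 100 CPM of Ttr. The 7 libraries to the right of the line, from both genotypes, have 2.56 to 5.40 CPM of Calb2, and the 5 to the left have 0.486 to 1.75 CPM.

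Cholecystokinin is a peptide transmitter of a rare class of striatal interneurons, and in the forebrain it is made far more widely by neurons of the cortex. Cck (ENSMUSG00000032532.8, chromosome 9, 121318890 to 121324760, minus strand) had levels of 5.74, 8.90, 11.7, 4.58, 4.24 and 11.0 CPM in order from NK1 to NK6, labelled TAAR5-KO. From NK7 to NK12, labelled TAAR5-WT, they were 6.59, 5.80, 3.83, 8.07, 10.8 and 11.7 CPM. Both groups thus spanned almost the same range, and the log2 fold change was −0.03 (SE 0.27, 95% interval −0.56 to 0.50, adjusted p = 0.981). Among the 2 and 5 libraries of high Ttr, Cck was 4.24 to 4.58 CPM in those labelled TAAR5-KO and 3.83 to 10.8 CPM in those labelled TAAR5-WT, and with the class of Ttr level as a term its log2 fold change was −0.54 (SE 0.21, unadjusted p = 0.0136, adjusted p = 0.226 from the likelihood ratio test). Exons of the non-coding genes Gm68675 and Gm69828 on the opposite strand share 418 and 276 bases with Cck in GENCODE M39, with the same uncertainty as for Nos1.

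Vasoactive intestinal peptide marks interneurons that inhibit other interneurons, a class much more common in cortex than in striatum. Vip (ENSMUSG00000019772.6, chromosome 10, 5589218 to 5597617) was counted 6 to 74 times per library labelled TAAR5-KO and 8 to 78 times per library labelled TAAR5-WT. Its level ran from 0.372 to 1.93 CPM with a median of 1.08 CPM and from 0.334 to 2.08 CPM with a median of 1.15 CPM, respectively. The groups covered nearly the same range. At these counts the 95% interval of the log2 fold change was wide, from −0.89 to 0.66 around −0.12 with an SE of 0.39 (adjusted p = 0.944). With the class of Ttr level as a term, the log2 fold change was −0.72 with an SE of 0.37 (adjusted p = 0.395).

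**Figure D4:**
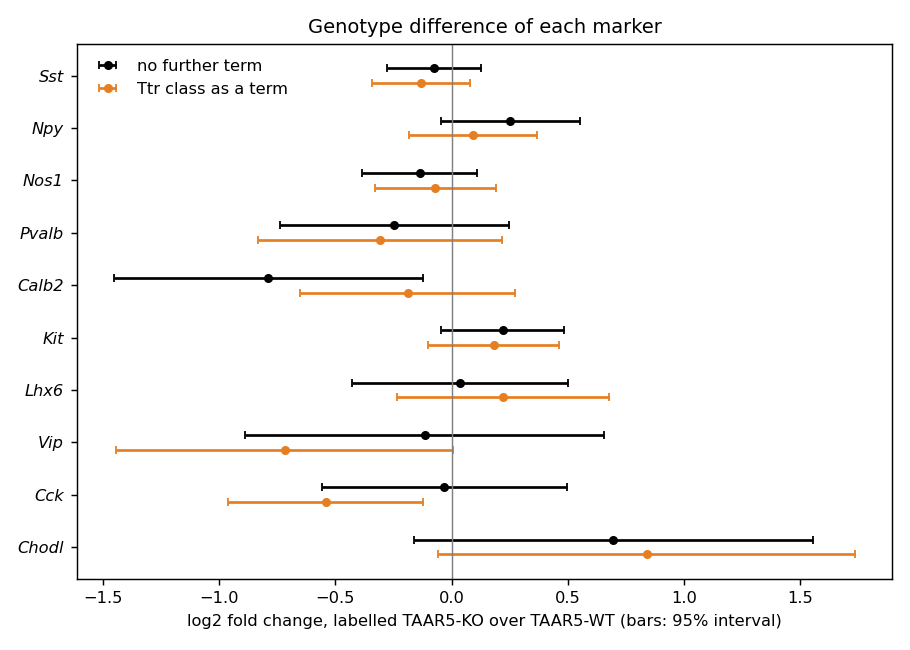
Log2 fold change of each of the 10 markers between libraries labelled TAAR5-KO and TAAR5-WT (x axis) with 95% intervals, from the fit without a further term (black) and with the class of Ttr level as a term (orange). The estimate of Calb2 moves from −0.79 to −0.19 and that of Cck from −0.03 to −0.54, and no adjusted p was under 0.1 in either fit.

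Some markers varied together from library to library without regard to the label. Over the 45 pairs of markers, Pearson's r of log2 CPM across the 12 libraries had a median of 0.07, and 3 pairs passed an adjusted p under 0.1 by 100000 permutations. Lhx6 and Cck ran opposite to each other (r = −0.85, rho = −0.86, permutation adjusted p = 0.00810 for r and 0.0297 for rho). Without NK3 and NK5, the libraries farthest from the median of Lhx6, r was −0.86. Vip and Cck rose together (r = 0.78, rho = 0.79, permutation adjusted p = 0.0511 and 0.0520), as did Npy and Cck (r = 0.76, rho = 0.83, permutation adjusted p = 0.0511 and 0.0353). Without the 2 farthest libraries these were 0.88 and 0.75. After each genotype was centred on its own mean, r was −0.86, 0.78 and 0.89 for the 3 pairs, and all 3 passed again. Sst and Npy, which largely share a cell type, had an r of 0.15 (permutation adjusted p = 0.785), and Sst and Nos1 had an r of 0.0044 (permutation adjusted p = 0.988). Sst also had the narrowest range of the 10 over libraries. Its SD was 9.33% of its mean under the label TAAR5-KO and 10.6% under TAAR5-WT, at 84 to 544 counts per library. The part of counting error in this small spread was not tested, so these low r cannot decide whether the genes vary together.

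Cck and its 3 partners also moved with the summed level of cortical marker genes. The summed level of 8 markers of cortical pyramidal neurons, all with counts in every library, was 53.1 to 132 CPM in libraries labelled TAAR5-KO and 56.0 to 141 CPM in those labelled TAAR5-WT, although the cortex had been cut away. In a relation examined after the data were seen, Cck followed this sum closely over the 12 libraries (r = 0.91, rho = 0.92, permutation p = 2.4e-04 for r, adjusted p = 0.00240 over 10 relations), and r was 0.87 without NK4 and NK9. Vip followed it as well (r = 0.72, rho = 0.78, permutation adjusted p = 0.0265 and 0.0171), as did Npy (r = 0.65, rho = 0.75, permutation adjusted p = 0.0564 and 0.0241). Lhx6 ran opposite to it (r = −0.72, rho = −0.72, permutation adjusted p = 0.0265 and 0.0272). Without NK4 and NK9, r was 0.66 for Vip, 0.65 for Npy and −0.71 for Lhx6, and with each genotype centred the r of Cck was 0.91. For the other 6 markers r lay between −0.55 for Calb2 and 0.26 for Sst, with no adjusted p under 0.1. Whether cortical tissue carried Cck, Vip and Npy into these libraries was not tested. Among the libraries of high Ttr, the cortical sum was 53.1 CPM in NK4 and 61.3 CPM in NK5, labelled TAAR5-KO. In NK7 to NK11, labelled TAAR5-WT, it ran from 56.0 to 127 CPM. The part of this sum in the estimates of Cck and Vip under the Ttr settings was not tested.

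**Figure D5:**
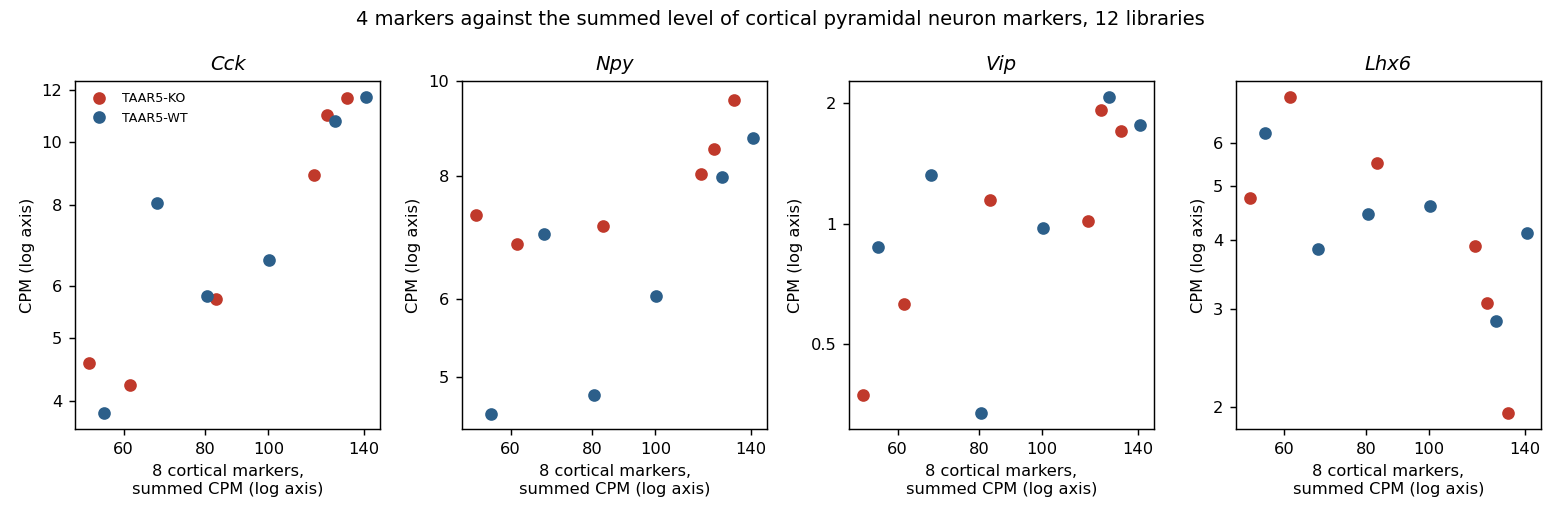
Level of Cck, Npy, Vip and Lhx6 in CPM against the summed level of 8 cortical pyramidal neuron markers in CPM, both on log axes, with 1 point per library (6 labelled TAAR5-KO in red, 6 labelled TAAR5-WT in blue). Cck (r = 0.91), Vip (r = 0.72) and Npy (r = 0.65) increase with the cortical sum and Lhx6 (r = −0.72) decreases, with both genotypes spread along the whole range.

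The upstream sequences of the peptide genes that varied together are given to show what these promoters hold and do not hold in common. Peptide genes are textbook targets of the cAMP response element, whose full site is TGACGTCA and whose shorter site is TGACG, searched on both strands. The sequences are those of the RefSeq table for GRCm38.p6, placed on GRCm39 by an exact match at 1 position, and each is the 250 bases just before the RefSeq start, 5′ to 3′ on the strand of the gene, with the shorter site in capitals. They are Npy at chr6:49799440-49799689 on the plus strand, Vip at chr10:5588968-5589217 on the plus strand and Cck at chr9:121324761-121325010 on the minus strand. For Sst, 30 bases at chr16:23709624-23709653 on the minus strand are given, with the full site in capitals.
Npy: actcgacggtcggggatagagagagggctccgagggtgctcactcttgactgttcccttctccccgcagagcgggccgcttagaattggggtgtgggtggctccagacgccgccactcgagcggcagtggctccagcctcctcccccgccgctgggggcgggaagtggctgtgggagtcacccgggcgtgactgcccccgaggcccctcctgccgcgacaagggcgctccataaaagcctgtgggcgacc
Vip: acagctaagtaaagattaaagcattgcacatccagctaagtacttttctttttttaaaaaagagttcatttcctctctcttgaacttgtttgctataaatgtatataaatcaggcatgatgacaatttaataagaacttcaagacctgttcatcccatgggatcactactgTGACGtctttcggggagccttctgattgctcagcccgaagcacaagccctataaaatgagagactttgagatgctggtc
Cck: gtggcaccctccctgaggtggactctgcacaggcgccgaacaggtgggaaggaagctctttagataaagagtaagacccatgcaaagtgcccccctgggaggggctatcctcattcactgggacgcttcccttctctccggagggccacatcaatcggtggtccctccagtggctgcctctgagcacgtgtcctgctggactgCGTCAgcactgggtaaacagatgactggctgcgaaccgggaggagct
Sst: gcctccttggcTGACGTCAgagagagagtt
The shorter site begins 79 bases before the start of Vip and 47 bases before that of Cck, and it is not in the window of Npy. The full site of Sst, which holds the shorter one on both strands, begins 48 bases before its RefSeq start, a position that lies inside the Sst feature as counted. Of the 9 markers in the table, 4 held the shorter site (Sst, Nos1, Vip and Cck) and 1 the full site, beside 17.9% and 1.62% of 27025 promoters. For each gene only the first listed promoter was searched, whereas RefSeq lists 2 for Pvalb, 2 for Kit and 3 for Lhx6. The letters TATAAA, on either strand, were in 1 of the 9, Vip, beside 13% of all promoters. The window of Vip had a GC content of 38.4%, that of Cck 60% and that of Npy 69.2%, so these 3 upstream windows differed in base composition. A match of letters is a description of the window and not of a bound site.

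Beyond the 10 markers, a list of 54 genes of interneuron biology was examined, of which 48 passed the filter. The likelihood ratio test called 0 of the 48, beside 1.65% of all features. Of the 48, 20 had higher and 28 had lower fitted levels under the label TAAR5-KO, with a median log2 fold change of −0.04. Of all 13902 features tested, 6798 were higher and 7104 lower. These shares also stand beside the counts of each gene group below. At an unadjusted p under 0.05 there were 3 of the 48, where all features had 11.9%. The quasi-likelihood test also called 0 (0.453% of all features), and DESeq2 called 1, Nr2f2 (1.27% of all features).

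Of 18 genes for the receptors and effectors of the marker peptides and enzymes, 15 were tested, with 10 higher, 5 lower and none called. Kitl, which encodes the ligand of Kit, was at 8.65 ± 1.71 CPM under the label TAAR5-KO and at 6.81 ± 1.24 CPM under the label TAAR5-WT (SD, n = 6 each). Its log2 fold change was 0.31 (SE 0.14, 95% interval 0.03 to 0.59, unadjusted p = 0.0273, adjusted p = 0.337). It was 0.13 with the class of Ttr level as a term and 0.12 with each library's GC trend removed, and neither Kitl nor Kit was called. Tacr1, the substance P receptor that Sst and Nos1 interneurons carry, had an estimate of 0.35 with an SE of 0.20 on the log2 scale (adjusted p = 0.480), which was 0.22 without NK12 and 0.19 within the libraries of high Ttr. Sstr5, Vipr2 and Cckar were too low to be tested.

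All 14 transcription factors of interneuron development were tested, with 4 higher, 10 lower and none called. Nr2f2, which encodes the orphan receptor COUP-TFII of interneurons from the caudal ganglionic eminence and is also expressed in vessels, ran from 2.11 to 5.24 CPM with a median of 2.66 CPM in libraries labelled TAAR5-KO. It ran from 2.64 to 7.43 CPM with a median of 5.81 CPM in those labelled TAAR5-WT. Its log2 fold change of −0.77 with an SE of 0.25 (adjusted p = 0.110) stopped just short of the threshold and was past it by DESeq2 (adjusted p = 0.0990) and without NK4 (−0.84, adjusted p = 0.0703), NK5 (−0.99, adjusted p = 0.0100) or NK12 (−0.92, adjusted p = 0.0137). With the class of Ttr level as a term it was −0.28 (adjusted p = 0.444), and within the libraries of high Ttr it was −0.37 (adjusted p = 0.688). The quasi-likelihood test gave Nr2f2 an adjusted p of 0.241. Over all fits that left out 1 library its adjusted p ran from 0.0100 to 0.324. Sox6, which acts downstream of Lhx6 in the maturation of Sst and Pvalb cells, was at 5.62 ± 0.666 CPM and 6.95 ± 0.490 CPM (SD, n = 6 each). Its log2 fold change was −0.29 (SE 0.10, unadjusted p = 0.00397, adjusted p = 0.147), and it was past the threshold when each library's trend with gene length was removed (−0.34, adjusted p = 0.0972) and without NK4 (adjusted p = 0.0913) or NK5 (adjusted p = 0.0821). The quasi-likelihood test gave Sox6 an adjusted p of 0.208, and over all fits that left out 1 library the adjusted p ran from 0.0821 to 0.328. With the class of Ttr level as a term its log2 fold change was −0.23 (adjusted p = 0.289), and within the libraries of high Ttr it was −0.12 (adjusted p = 0.906). Which cells carried the counts of Sox6 cannot be told from this bulk RNA.

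Among 22 other genes of interneurons, 19 were tested, with 6 higher, 13 lower and none called. Gad1, which encodes a GABA synthesis enzyme of interneurons and spiny neurons alike, had an estimate of 0.17 with an SE of 0.10 on the log2 scale (adjusted p = 0.496). Crhbp, the binding protein of corticotropin-releasing hormone found in Sst cells, had 0.61 with an SE of 0.39 (adjusted p = 0.566), or 0.18 with the class of Ttr level as a term. Pthlh, Cort and Cox6a2 were too low to be tested. Cholinergic interneurons, which are not GABA interneurons by class, had 6 of 6 markers with counts in every library and a summed level of 3.91 to 11.0 CPM in libraries labelled TAAR5-KO and 4.89 to 12.0 CPM in those labelled TAAR5-WT, with none called.

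The features whose log2 CPM ran most like that of each marker over the 12 libraries were listed as a description, chosen as the 3 with the highest Pearson's r among all tested. Cck ran most like Zbtb18 (r = 0.97), Sel1l3 (0.97) and Etl4 (0.96). Npy ran most like Pfkp (r = 0.96), Dusp6 (0.91) and Atg2b (0.91), and Vip most like Cabyr (r = 0.91), Fbxo45 (0.88) and Clec2l (0.88). Lhx6 ran most like Gad2 (r = 0.94), the second GABA synthesis enzyme, followed by Rtl9 (0.93) and Peg10 (0.93). Calb2 ran most like Shroom4 (r = 0.95), Sntg2 (0.94) and Acadsb (0.93). Nos1 ran most like Gap43 (r = 0.91), Ncam1 (0.89) and Impact (0.85), and Pvalb most like Mrps18a (r = 0.89), Shf (0.87) and Mansc1 (0.86). Kit ran most like Dnlz (r = 0.89), Gm13293 (0.89) and Gm44094 (0.88), and Sst most like Ckmt1 (r = 0.85), Dzip1l (0.85) and Relt (0.83). For Chodl the first were Gm44798 (r = 0.95), Gm38451 (0.88) and Gm44435 (0.88).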

How the data were processed

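Mouse striatal RNA was sequenced as single-end reads. Per the labels and methods, reads were trimmed with cutadapt 4.1, aligned to GRCm39 with STAR 2.7.11b and counted with featureCounts 2.0.6 on GENCODE M35. The authors deposited raw whole-number counts per gene, without normalization or pooling, with the merged exon length. How strand and multi-mapping reads were treated is not given in the sources used here. The table's other 12 per-library columns, which match no sample here, were left out.

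Column names hold the genotype and a library number (NK1 to NK12) but no animal, so each column was 1 replicate of its labelled genotype, with no sex and no pairing. Nothing beyond the labels shows how the animals were sampled over litters, so p-values measure only the spread between these libraries. The members and gene lists were chosen with earlier results of these data known.

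The CPM cut-off of the study (0.5 or more in 3 or more libraries) was applied here to CPM on total counts and kept 13902 of 57132 features. On TMM library sizes, one of the alternatives, it kept 13053, the same number of features that the study gives after its filter. Of these, 234 were called here, 135 higher and 99 lower under the label TAAR5-KO. The study reports fewer features called, with more of them lower than higher in TAAR5-KO. The cause of this difference was not tested. The study does not name the library sizes it used. Genotypes were compared in edgeR 4.0.16 (R 4.3.3) with TMM factors, estimateDisp, glmFit and glmLRT, the test and threshold of the study (Benjamini–Hochberg adjusted p under 0.1), on the whole table. Standard errors came from the Fisher information of the same fit. The script was tested on simulated data. Ratios used log2 counts and an exact permutation test, and correlations used log2 CPM with a prior count of 2 and 100000 permutations. Alternatives were the quasi-likelihood test, DESeq2 1.42.0, library size or RLE scaling, filterByExpr, no filter, CPM on TMM library sizes, an adjusted p under 0.05, removal of the gene length trend by loess (span 0.5), and leaving out each library. Added after the data were seen were removal of the GC trend, removal of ribosomal RNA features, the class of Ttr level (above or below 100 CPM) as a term, and the fit within the libraries of high Ttr. Named genes were the 10 markers, from each role group of the wider list the 2 with the smallest unadjusted p and any called, the 3 features most like each marker, and Taar5. Ttr and the mast cell genes were named after their values were seen. Gene overlaps came from GENCODE M39 and promoters from RefSeq, where 9 of the 10 markers matched.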

Additional observations from a re-analysis of the deposited data

Results flagged for a closer look

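Across 32 groups of 6 values (levels and ratios of the markers), 2 held a library far from the rest of its group by Dixon's test, and chance gives about 1 in 20. The level of Sst in NK12 was 12.3 CPM, above the other 5 libraries labelled TAAR5-WT by 0.658 of the whole range of the group. NK12 has the largest number of counts outside ribosomal RNA, 6085409, and without it the log2 fold change of Sst was 0.0010. The log2 ratio of Nos1 to Sst in NK6 was −0.50, below the other 5 libraries labelled TAAR5-KO by 0.700 of the range of that group. Without NK6 the difference in this ratio was 0.02 in place of −0.08.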

How the results depend on the processing

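None of the 10 markers was called where it was tested, under any setting or in any fit that left out 1 library. Their smallest adjusted p over these was 0.107 (Calb2, without NK5, likelihood ratio test). Chodl did not pass the filter with filterByExpr, within the libraries of high Ttr, or without NK5, NK6 or NK7. Of all features, 229 called (133 higher, 96 lower) became 63 by the quasi-likelihood test (43 and 20), 7 with library size alone (0 and 7), 93 without a filter, 108 at an adjusted p under 0.05 (75 and 33), 105 with the GC trend removed, 42 within libraries of high Ttr (18 and 24), and 85 (without NK11) to 414 (without NK4) with 1 library left out. With the class of Ttr level as a term, the split was 129 and 133. The wider list had 1 call by DESeq2 (Nr2f2), with the length trend removed (Sox6), with the class of Ttr level as a term (Cckbr, −0.72, adjusted p = 0.0423, edgeR) and within libraries of high Ttr (Nos1ap, −0.70, adjusted p = 0.0454), and 0 to 2 with 1 library left out.

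Library size alone shifted the median over all features by −0.49 on the log2 scale, and turned Npy to −0.31, Kit to −0.29, Lhx6 to −0.32, Kitl to −0.31, Tacr1 to −0.19, Crhbp to −0.039 and Gad1 to −0.28. Cck was 0.011 with the length trend and 0.0019 with the GC trend removed. Within libraries of high Ttr, Sst was 0.022, Kitl −0.032 and Crhbp −0.051. With 1 library left out, Cck ran from −0.17 to 0.12, Lhx6 from −0.17 to 0.19, Vip from −0.38 to 0.10, Sst from −0.11 to 0.0010 and Calb2 from −1.04 to −0.58. The ratio of Cck to Sst ran from −0.15 to 0.21, that of Nos1 to Sst from −0.17 to 0.024 and that of Npy to Sst from 0.28 to 0.45, the last past the threshold without NK5 (exact permutation, adjusted p = 0.0909). Pairs of correlated markers numbered 36 with library size alone (median r 0.79) and 6 with each genotype centred, in place of 3. The causes were not tested. No paired analysis was possible because the columns carry library numbers that are not the animal numbers of the labels. Chodl, with 2 to 11 counts per library, had the fewest counts of the 10.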
